A study of Mus musculus with 8 samples.

Results

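The genes described here encode leak channels, 6 potassium channels of the K2P family (Kcnk1, Kcnk2, Kcnk3, Kcnk4, Kcnk10 and Kcnk12) and the sodium leak channel gene Nalcn. They were taken by gene symbol, through the GENCODE mouse M21 annotation, from a count matrix of 54446 genes, and all 7 were present and passed the filter on low counts. RNA-seq libraries of 4 HOM samples, from mice with both Scn2a alleles trapped (Scn2agt/gt), were compared with 4 of WT littermates. All came from C75BL6 mice, as the labels spell the strain, bred from heterozygous pairs. A gene trap is a cassette inserted into a gene that interrupts its transcript. The trap is carried by every cell of the animal, so a difference in a leak channel gene cannot be assigned to 1 cell type. The title speaks of adult mice and the labels give no age, sex or brain region. The study asks how a severe shortage of the sodium channel NaV1.2, the product of Scn2a, alters neuronal excitability, to which leak channels contribute.

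Leak channels stay open near the resting potential. K2P subunits have a pair of pore domains each and assemble as dimers, and the potassium current they pass holds neurons and astrocytes at a negative potential. NALCN works in the other direction: it lets sodium leak in and depolarizes the cell, and it needs the partner proteins UNC79, UNC80 and NALF1 (gene Fam155a) to reach the membrane and conduct. In the brain, less K2P current or more NALCN current is known to bring neurons closer to firing.

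Total counts lay between 27993412 and 37538988 per library. Scn2a itself stood at 122, 147, 131 and 112 CPM in HOM replicates 1 to 4, against 477, 371, 477 and 415 CPM in WT replicates 1 to 4, where CPM are read counts relative to library size after TMM scaling. The labels call the RNA source neuron, yet oligodendrocyte markers (8 genes) summed to 3273 to 4006 CPM in HOM and 3808 to 5702 CPM in WT, beside 4614 to 5199 CPM in HOM and 5282 to 5953 CPM in WT for excitatory neuron markers (6 genes). Choroid plexus markers summed to 19.7 to 240.1 CPM in HOM and 151 to 1752 CPM in WT, the highest value being that of WT replicate 4. Counts of 4 Y-linked genes numbered 2 in HOM replicate 4 and 4452 to 5984 in the other libraries. By these counts HOM replicate 4 was female and the other libraries held male RNA, so sex was not balanced between the genotypes. An effect of sex on the values of HOM replicate 4 was not tested. In bulk RNA such as this, fewer cells of a type and less RNA per cell cannot be told apart. Nothing in the labels says that each library is a separate mouse. By its sex HOM replicate 4 came from another animal than the other HOM libraries, and among the rest the spread may be technical. The p-values thus speak of the spread among these libraries.

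The promoters of the 2 genes that separated the genotypes, Kcnk1 and Kcnk2, are printed so that they can be read beside the values below, and were searched for binding letters of 5 kinds of transcription factor, among them EGR and AP-1, which neuronal activity is known to induce. The sequences come from RefSeq on GRCm38.p6 and run from 250 bases before to 50 bases after an annotated start. They held 10 windows for 6 of the members (no Kcnk3). Capitals mark matches, on either strand, to GCGNGGGCG (EGR), TGANTCA (AP-1), TGACGTCA (CRE), CACGTG (E-box) or GGGCGG (GC box). Kcnk1 has 1 window, chr8:125994852-125995151 on the plus strand. Of 4 windows of Kcnk2, on the minus strand, the pair with an EGR or AP-1 match is printed, chr1:189343304-189343603 (EGR) and chr1:189344143-189344442 (AP-1).
Kcnk1: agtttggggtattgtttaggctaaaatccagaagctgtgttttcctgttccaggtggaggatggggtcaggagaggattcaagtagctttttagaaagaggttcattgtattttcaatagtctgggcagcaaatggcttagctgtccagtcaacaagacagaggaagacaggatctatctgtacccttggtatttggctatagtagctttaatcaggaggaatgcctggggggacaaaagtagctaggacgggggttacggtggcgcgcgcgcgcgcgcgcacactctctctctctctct
Kcnk2, EGR match: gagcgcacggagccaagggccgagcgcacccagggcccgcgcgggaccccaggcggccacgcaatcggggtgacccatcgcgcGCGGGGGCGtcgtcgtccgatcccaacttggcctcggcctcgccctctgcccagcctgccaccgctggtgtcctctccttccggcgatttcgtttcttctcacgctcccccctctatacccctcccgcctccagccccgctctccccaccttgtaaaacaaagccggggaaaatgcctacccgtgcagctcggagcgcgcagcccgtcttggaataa
Kcnk2, AP-1 match: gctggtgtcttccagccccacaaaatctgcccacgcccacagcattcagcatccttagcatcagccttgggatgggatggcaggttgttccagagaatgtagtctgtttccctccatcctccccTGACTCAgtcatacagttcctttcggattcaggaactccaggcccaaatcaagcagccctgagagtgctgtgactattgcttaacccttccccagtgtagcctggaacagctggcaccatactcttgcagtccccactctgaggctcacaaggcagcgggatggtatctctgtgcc
The Kcnk1 window held none of the 5 motifs. The EGR match of Kcnk2 began 167 bases before the start, and the AP-1 match 126 bases before it. Over the 10 windows of members an EGR match was present in 1, an AP-1 match in 1, a GC box in 4, and a CRE or E-box in 0. Among all 32851 windows of this length, 5.55% held the EGR letters, 7.81% the AP-1 letters, 1.79% the CRE, 7.15% the E-box and 35.7% the GC box. EGR and GC box letters can overlap, which they did not in the windows printed. CpG dinucleotides numbered 10 in the Kcnk1 window, 33 in the Kcnk2 window with the EGR match and 3 in that with the AP-1 match, against a median of 7 over all windows, which 5 of the 10 windows of members exceeded. A match of letters is a description, and the counts do not tell which of the 4 starts of Kcnk2 was used.

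Kcnk1 was the only member with an edgeR adjusted p under 0.05, and it was lower in HOM. It encodes TWIK1, a weakly conducting K2P channel found in astrocytes as well as neurons. Its level was 37.8, 43.0, 44.5 and 39.0 CPM in HOM replicates 1 to 4, against 49.2, 56.4, 48.9 and 50.5 CPM in WT replicates 1 to 4. Every HOM library lay below every WT library, and the closest pair was HOM replicate 3 and WT replicate 3. Means were 41.1 ± 3.18 CPM in HOM and 51.2 ± 3.50 CPM in WT (SD, n = 4), which puts HOM at 80.2% of WT. On the log2 scale HOM over WT was -0.32 (SE 0.08; edgeR quasi-likelihood F test, adjusted p = 0.0364 by Benjamini-Hochberg over 17395 genes), and the 95% interval ran from -0.49 to -0.15. The exact two-sided permutation test over 70 relabellings gave p = 0.0286, the smallest value the design allows.

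The Kcnk1 call rested on all but 1 of the libraries. With each left out alone, adjusted p (edgeR) was 0.142, 0.0430, 0.0783 and 0.0840 without HOM replicates 1 to 4, and 0.0560, 0.0634, 0.0808 and 0.0712 without WT replicates 1 to 4, at log2 fold changes from -0.35 to -0.27. It also missed the threshold with upper-quartile scaling (edgeR adjusted p = 0.0505) and with library totals alone (0.0731). When the level of choroid plexus markers entered the fit, edgeR adjusted p was 0.222. The log2 fold change was then -0.38, with an SE of 0.12 against 0.08 without these markers. Their mean level was 0.50 log2 CPM in HOM and 2.83 in WT, and of the HOM libraries only replicate 1 reached the WT range. Genotype and marker level are therefore hard to tell apart in this fit. Kcnk1 (ENSMUSG00000033998) spans 35516 bases of the plus strand of chromosome 8, from 125995170 to 126030685 in GRCm38. The span of an antisense gene at its 3' end, Gm45875, covers 4.05% of the Kcnk1 span and 53.4% of its exonic bases. Gm45875 itself had 4 to 13 counts per library in HOM and 7 to 17 in WT. Of 1280 protein-coding genes nested in another gene 1261 stood at 0 in every library, against 13.5% of those not nested, so reads in shared stretches may be missing from the counts, those of Kcnk1 included, and its value is uncertain to that extent.

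In all, 1 of 7 members passed the threshold, lower in HOM, where 5.4% of all genes passed in either direction and 2.94% were lower and 2.47% higher. Of the members, 6 had a log2 fold change below 0 and 1 above 0, and 49.8% of all genes lay below 0. The median log2 fold change of the members was -0.14, against 0.00 over all genes tested. With so few genes these shares describe the members alone. All 7 intervals of the fold change lay within 1.5-fold in either direction. The total of 940 genes called was itself sensitive to single libraries, at 212, 180 and 552 without HOM replicates 1, 3 and 4, and 527, 181 and 482 without WT replicates 1, 3 and 4, against 1187 without HOM replicate 2 and 957 without WT replicate 2.

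**Figure D1:**
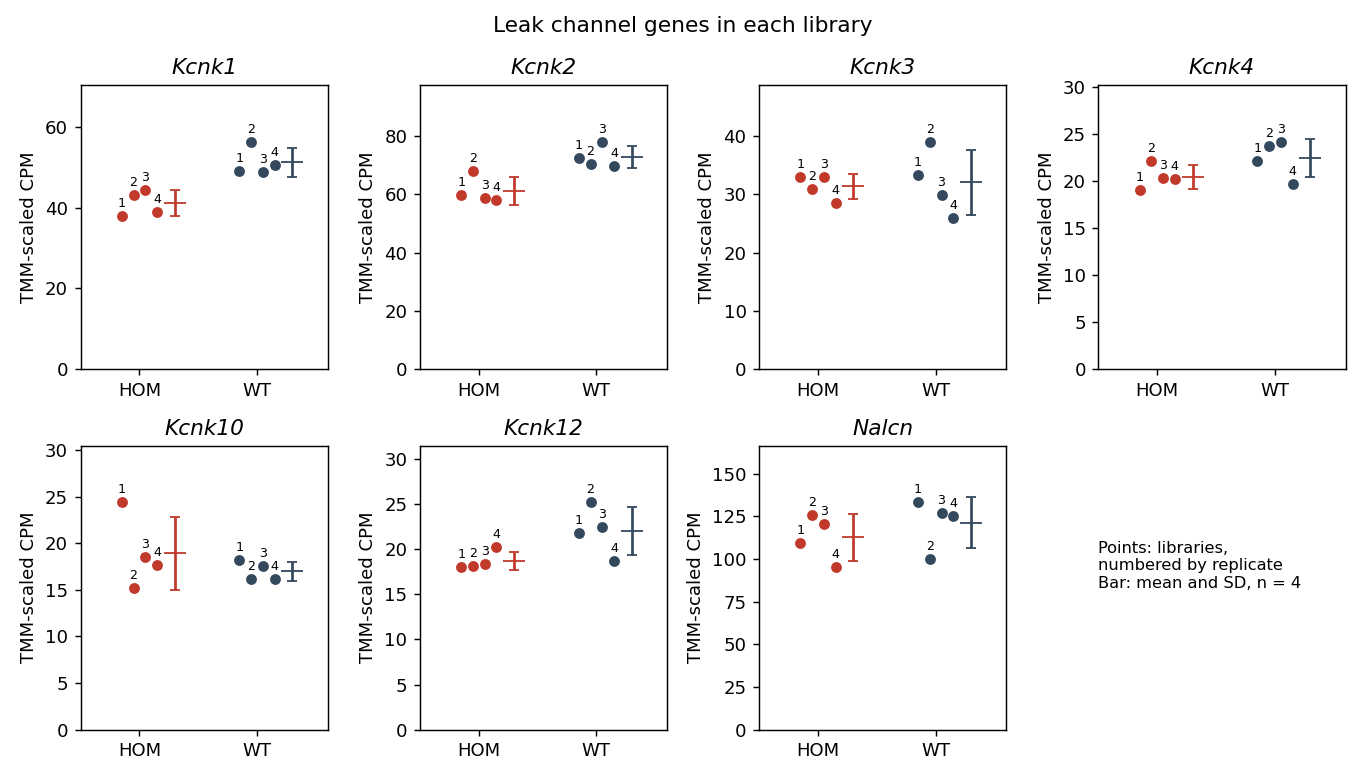
Level of each leak channel gene, in TMM-scaled CPM, in the 4 HOM and 4 WT libraries (points, numbered by replicate), with mean and SD beside them. The HOM points lie below all WT points for Kcnk1 and Kcnk2, and the groups overlap for the other 5 genes.

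The mechano-gated K2P channels TREK1, TREK2 and TRAAK, which respond to membrane stretch and lipids, are encoded by Kcnk2, Kcnk10 and Kcnk4. Kcnk2 stood at 59.7, 68.1, 58.7 and 58.0 CPM in HOM replicates 1 to 4, against 72.6, 70.5, 78.1 and 69.7 CPM in WT replicates 1 to 4. The groups did not overlap, although HOM replicate 2 came close to WT replicate 4. Kcnk1 and Kcnk2 were thus 2 of 7 members without overlap, both lower in HOM, as were 14.1% of all genes in either direction, 7.47% lower and 6.63% higher. Kcnk2 averaged 61.1 ± 4.71 CPM in HOM and 72.7 ± 3.80 CPM in WT (SD, n = 4). Its log2 fold change, -0.25 (SE 0.07, 95% interval -0.40 to -0.10), missed the threshold narrowly (edgeR adjusted p = 0.0589; exact permutation test, p = 0.0286, the smallest value possible). It passed with DESeq2 (adjusted p = 0.0185) and without HOM replicate 2 (edgeR adjusted p = 0.0276, log2 fold change -0.30). Kcnk2 covers 194344 bases of chromosome 1, and other genes share 1.35% of that span and 12.2% of its exonic bases, so its value is uncertain to that extent.

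Astrocytes are known to carry TWIK1 and TREK1. Of 7 astrocyte markers tested 1 was lower in HOM, the water channel gene Aqp4, where 2.94% of all genes were lower. The other 6 did not pass, at log2 fold changes as near to 0 as -0.01 for Slc7a10. The median log2 fold change of the 7 markers was -0.12. Gfap stood at 0 in every library, and whether its reads were missing from the counts, as for nested genes, was not tested. The list summed to 3804 to 4661 CPM in HOM and 4739.9 to 5083 CPM in WT, which do not overlap. The sums of excitatory neuron markers did not overlap either, with 1 of 6 called, the transcription factor gene Neurod6, lower in HOM. General neuron markers summed to 4426 to 5264 CPM in HOM and 5333 to 6198 CPM in WT. Of the 4 tested 1 was lower, Snap25, and Tubb3 and Nefl were at 0 in every library. The median log2 fold change was -0.20 for excitatory and -0.20 for general neuron markers. Inhibitory neuron markers, with 1 of 6 lower, summed to 681 to 737 CPM in HOM and 783 to 911 CPM in WT. Of 8 endothelial markers 3 were lower, and their sums were 167 to 202 CPM in HOM and 205 to 261 CPM in WT. Of 8 pericyte and smooth muscle markers 2 were lower, with sums of 135 to 159.9 CPM in HOM and 176 to 188 CPM in WT. Of 7 microglia markers tested 1, C1qa, was higher in HOM, where 2.47% of all genes were higher. Their median log2 fold change was 0.09, and their sums overlapped, at 310.4 to 344 CPM in HOM and 279 to 323 CPM in WT. The part of these cell types in the values of Kcnk1 and Kcnk2 was not tested. For choroid plexus markers, 3 of 11 tested were lower and Kcnj13 was at 0, where missing reads were not tested either. With the mean level of these markers in the fit the log2 fold change of Kcnk2 was -0.35 (SE 0.11, edgeR adjusted p = 0.203). The same fit gave -0.34 for Kcnk4, -0.42 for Kcnk12 and 0.35 for Kcnk10, and none of them passed (edgeR adjusted p = 0.218, 0.207 and 0.422).

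Kcnk10 was the 1 member whose mean was higher in HOM, on the strength of a single library. It stood at 24.4, 15.2, 18.5 and 17.7 CPM in HOM replicates 1 to 4, against 18.2, 16.2, 17.5 and 16.1 CPM in WT replicates 1 to 4. HOM replicate 1 was above every other library and HOM replicate 2 below every other, so the HOM libraries enclosed the WT range. The coefficient of variation was 20.6% in HOM and 5.97% in WT, beside counting errors of 3.97% in HOM and 4.30% in WT that the counts alone would give. HOM over WT was 0.16 on the log2 scale (SE 0.13, 95% interval -0.12 to 0.43, edgeR adjusted p = 0.485) and 0.02 without HOM replicate 1 (edgeR adjusted p = 0.939). Cerebellar neuron markers were uneven between libraries. Gabra6 had 119 counts in HOM replicate 1, 2 in WT replicate 3 and 0 elsewhere. Cbln3 stood at 6.56 CPM in HOM replicate 1 and 0.379 to 0.791 CPM in the other libraries. Zic1 and Zic2 were highest in WT replicate 4, and Cbln1 and Pcp2 were at 0 throughout. The bearing of these markers on the Kcnk10 values was not tested. The ratio of Kcnk10 to Kcnk2 counts was 0.313 ± 0.0759 in HOM and 0.234 ± 0.0114 in WT (SD, n = 4), and it ran from 0.223 to 0.408 in HOM and 0.224 to 0.250 in WT.

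Kcnk4 stood at 19.1, 22.1, 20.3 and 20.3 CPM in HOM replicates 1 to 4, against 22.1, 23.8, 24.2 and 19.8 CPM in WT replicates 1 to 4. The groups overlapped through the low WT replicate 4, at a log2 fold change of -0.14 (SE 0.09, 95% interval -0.32 to 0.05, edgeR adjusted p = 0.362). TRAAK, its product, is known from nodes of Ranvier of myelinated axons. Kcnk4 on chromosome 19 shares 13.4% of its span and 31.7% of its exonic bases with Catsperz on the same strand, so its value is uncertain. Catsperz differed by a log2 fold change of -0.02 (SE 0.12).

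Kcnk3 encodes TASK1, a channel closed by extracellular acid and by receptors coupled to Gq. It was the member with the smallest difference, at 33.1, 31.0, 33.0 and 28.5 CPM in HOM replicates 1 to 4, against 33.4, 39.1, 30.0 and 25.9 CPM in WT replicates 1 to 4. The HOM values lay inside the WT range. HOM over WT was -0.03 on the log2 scale (SE 0.11, 95% interval -0.27 to 0.21, edgeR adjusted p = 0.900), and its sign changed with the scaling (0.04 with library totals alone), without HOM replicate 4 (0.03) and without WT replicate 2 (0.08). Kcnk3 varied more among WT libraries, with a coefficient of variation of 17.3%, than among HOM libraries, with 6.85%, where counting error is 3.13% in WT and 3.10% in HOM. The start of Kcnk3 on chromosome 5 overlaps Gm9899, a transcript of the opposite strand, over 1.21% of its span and 10.8% of its exonic bases, so its value is uncertain to that extent.

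Kcnk12 encodes THIK2, a K2P subunit that gives little current on its own when expressed in cells. It stood at 18.0, 18.2, 18.3 and 20.2 CPM in HOM replicates 1 to 4, against 21.8, 25.2, 22.5 and 18.7 CPM in WT replicates 1 to 4. The first 3 HOM replicates lay below all WT libraries and HOM replicate 4 lay above WT replicate 4. The log2 fold change of -0.24 (SE 0.09, 95% interval -0.44 to -0.03) did not pass (unadjusted p = 0.0254, edgeR adjusted p = 0.153; exact permutation test, p = 0.0571). No annotated gene overlaps Kcnk12, which spans 52194 bases of chromosome 17.

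Nalcn, the gene of the sodium leak, stood at 109, 126, 121 and 95.04 CPM in HOM replicates 1 to 4, against 133, 99.7, 127 and 125 CPM in WT replicates 1 to 4. The groups overlapped, with a low value in each, HOM replicate 4 and WT replicate 2. Means were 113 ± 13.5 CPM in HOM and 121 ± 14.7 CPM in WT (SD, n = 4). The log2 fold change was -0.11 (SE 0.10, 95% interval -0.33 to 0.12, edgeR adjusted p = 0.565), that is between 0.794 and 1.08 of the WT level. Without HOM replicate 4 the log2 fold change was -0.02 and without WT replicate 2 it was -0.19. The gene is long, 350511 bases on chromosome 14, and no library held fewer than 3026 of its counts. Set against the summed CPM of the 6 K2P members, Nalcn made a ratio of 0.586 ± 0.0542 in HOM and 0.561 ± 0.0887 in WT (SD, n = 4). The ranges of this ratio, 0.518 to 0.635 in HOM and 0.432 to 0.625 in WT, overlapped.

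The 6 K2P members summed to 192, 198, 193 and 184 CPM in HOM replicates 1 to 4, against 217, 231, 221 and 201 CPM in WT replicates 1 to 4. These sums did not overlap. They are dominated by Kcnk2 and Kcnk1. When the other 8 K2P genes were added, the sums ran from 321 to 374 CPM in HOM and from 347 to 396 CPM in WT and overlapped.

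**Figure D2:**
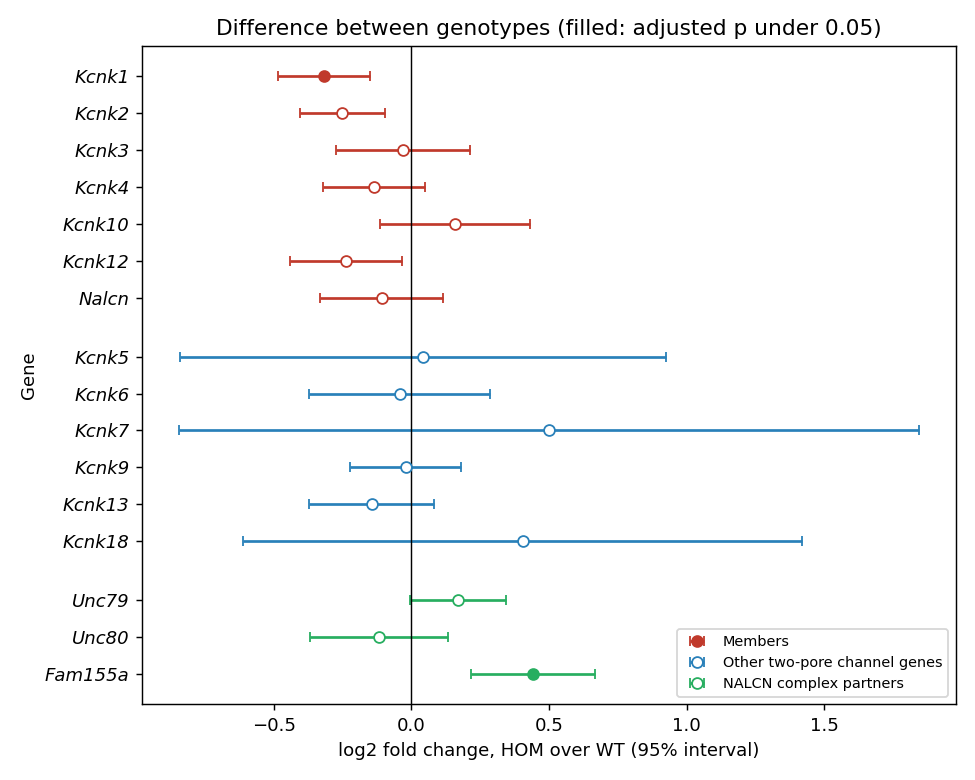
Log2 fold change of HOM over WT, with 95% intervals, for the 7 leak channel genes, 6 other K2P genes that passed the low-count filter and 3 genes of NALCN partners. Filled points, Kcnk1 at -0.32 and Fam155a at 0.44, have an adjusted p under 0.05.

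Of the NALCN partner genes 3 were measured, and 1 was called higher in HOM, as were 2.47% of all genes tested. With so few genes the call describes that gene and not the complex. Fam155a, whose product NALF1 is an extracellular-facing subunit of the NALCN complex, stood at 376, 305, 283 and 297 CPM in HOM replicates 1 to 4, against 250.3, 251, 233 and 193 CPM in WT replicates 1 to 4. Every HOM library was above every WT library. The log2 fold change was 0.44 (SE 0.10, edgeR adjusted p = 0.0331; exact permutation test, p = 0.0286). Adjusted p was 0.0961 without HOM replicate 1, 0.0680 without HOM replicate 3, 0.0889 without WT replicate 3, 0.0703 without WT replicate 4, 0.0690 without both replicates 4 and 0.255 once choroid plexus markers entered the fit (edgeR). In the same order, the log2 fold changes of Fam155a in these settings were 0.35, 0.50, 0.44, 0.36, 0.40 and 0.45, the last with an SE of 0.16. Fam155a relative to Nalcn gave a ratio of CPM of 2.84 ± 0.535 in HOM and 1.94 ± 0.411 in WT (SD, n = 4). The ranges of this ratio, 2.35 to 3.45 in HOM and 1.54 to 2.52 in WT, overlapped through WT replicate 2.

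The large scaffold genes of the complex did not pass. Unc79 had a log2 fold change of 0.17 (SE 0.08, 95% interval -0.01 to 0.34, edgeR adjusted p = 0.234), with 149, 146, 147 and 128 CPM in HOM replicates 1 to 4 and 136, 116, 139.6 and 116 CPM in WT replicates 1 to 4. Unc80 had one of -0.12 (SE 0.12, 95% interval -0.37 to 0.13, edgeR adjusted p = 0.583). The ratio of Unc79 to Unc80 CPM ran from 0.293 to 0.382 in HOM and from 0.253 to 0.282 in WT, without overlap. The Fam155b gene was not matched in the annotation and is not analysed here.

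None of the other K2P genes passed. Of 8 in the matrix 6 were tested, at a median log2 fold change of 0.01 (edgeR; 0 of 6 at an unadjusted p under 0.05 as well, and 0 of the 3 to which DESeq2 gave an adjusted p). The highest was Kcnk9, the gene of the acid-sensitive channel TASK3, at 143, 158, 149.8 and 119.98 CPM in HOM replicates 1 to 4 and 160.4, 139, 152 and 128 CPM in WT replicates 1 to 4. Its log2 fold change was -0.02 (SE 0.09, 95% interval -0.22 to 0.18). TASK1 and TASK3 subunits can combine in 1 channel, and the ratio of Kcnk3 to Kcnk9 CPM was 0.221 ± 0.0184 in HOM and 0.222 ± 0.0398 in WT (SD, n = 4). Kcnk13, the gene of THIK1, a channel of microglia, had a log2 fold change of -0.14 (SE 0.10) and Kcnk6 one of -0.04 (SE 0.15). Kcnk5, Kcnk7 and Kcnk18 had means under 1 CPM, and their intervals reached beyond 1.5-fold.

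Among 24 genes of proteins known to bind or regulate these channels, 1 rose and 1 fell, with a median log2 fold change of 0.03. Over all genes tested 2.47% were called higher and 2.94% lower, so the calls describe the genes named and not the list. Sort1, whose product sortilin binds TREK1 in mouse brain and aids its transport to the membrane, stood at 414, 469, 446 and 399 CPM in HOM replicates 1 to 4, against 608, 558, 631 and 595 CPM in WT replicates 1 to 4. The groups were far apart, at a log2 fold change of -0.47 (SE 0.07, edgeR adjusted p = 0.00533; exact permutation test, p = 0.0286). Adjusted p of Sort1 was 0.0841 with choroid plexus markers in the fit (edgeR), at a log2 fold change of -0.52 (SE 0.11). Ntsr1, the neurotensin receptor gene, rose by 0.85 on the log2 scale (SE 0.09, edgeR adjusted p = 7.67e-04); in mouse midbrain neurons neurotensin is known to open NALCN. It stood at 30.2, 24.1, 26.2 and 28.2 CPM in HOM replicates 1 to 4, against 15.7, 15.7, 15.4 and 13.6 CPM in WT replicates 1 to 4. The other 22 did not pass, and those of smallest p were, as log2 fold changes, the Gq gene Gnaq (-0.21, SE 0.07), the thyrotropin-releasing hormone receptor gene Trhr (0.52, SE 0.19), the substance P receptor gene Tacr1 (0.31, SE 0.14) and the anchoring protein gene Akap5 (-0.18, SE 0.08).

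Levels can be compared between genes only per length, and the order depended on which length was used. Per kilobase of gene span Kcnk4 was highest, at 1.94 ± 0.119 CPM in HOM and 2.13 ± 0.192 CPM in WT, followed by Kcnk1, at 1.16 ± 0.0896 CPM in HOM and 1.44 ± 0.0987 CPM in WT (SD, n = 4). Kcnk3 and Kcnk12 came next, then Nalcn before Kcnk2 in HOM and Kcnk2 before Nalcn in WT, with Kcnk10 lowest at 0.127 ± 0.0262 CPM in HOM and 0.114 ± 0.00682 CPM in WT. In both genotypes Kcnk12 overlapped in range with the next lower gene, and Kcnk2 with Nalcn, while no other neighbours in the order did. Per kilobase of exons Kcnk1 was highest, at 18.4 ± 1.42 CPM in HOM and 22.9 ± 1.57 CPM in WT, Kcnk2 was next, and Kcnk10 was again lowest. Kcnk4 was in 6th place on that scale. On it the neighbours Nalcn and Kcnk3 overlapped in both genotypes and no other neighbours did. Of the partners, Fam155a reached 48.2 CPM per kilobase of exons in HOM and 35.5 in WT, against 7.65 in HOM and 8.24 in WT for Nalcn. Per kilobase of span the same pair stood at 0.558 in HOM and 0.410 in WT for Fam155a, against 0.321 in HOM and 0.346 in WT for Nalcn.

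**Figure D3:**
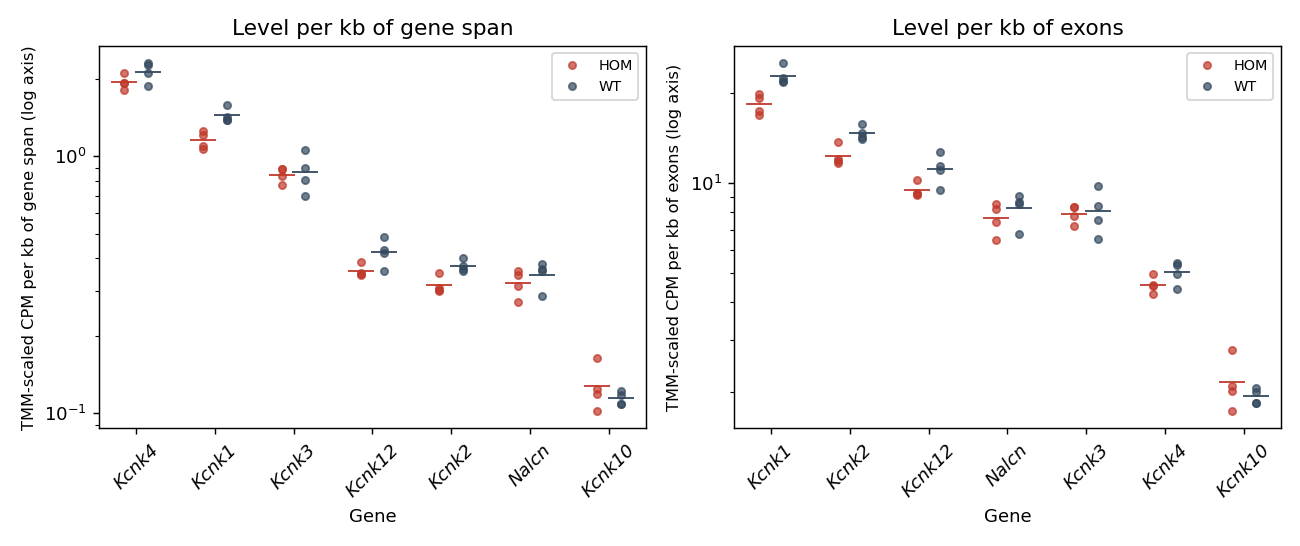
Level of each leak channel gene in TMM-scaled CPM per kilobase of gene span (left) and per kilobase of exons (right), on log axes, with HOM and WT libraries as points and their means as bars. Kcnk4 leads per span and Kcnk1 per exon length, and Kcnk10 is lowest on both.

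Libraries did not rank the members alike. WT replicate 4 was the lowest WT library for Kcnk2, Kcnk3, Kcnk4, Kcnk10 and Kcnk12, whereas WT replicate 2 was the highest for Kcnk1, Kcnk3 and Kcnk12 and the lowest for Nalcn. Of the thalamic neuron markers, Prkcd stood at 57.7 CPM and Tcf7l2 at 23.1 CPM in WT replicate 4. The other WT libraries had 10.3 to 12.4 CPM of Prkcd and 9.39 to 9.67 CPM of Tcf7l2. HOM libraries had 13.2 to 27.1 CPM of Prkcd and 9.87 to 15.6 CPM of Tcf7l2. Rora, on the same list, was lowest in WT replicate 4. The bearing of these markers on the members was not tested. In HOM, replicate 2 was highest for Kcnk2, Kcnk4 and Nalcn and lowest for Kcnk10. The protein-coding genes whose log2 CPM followed each member most closely over the 8 libraries were found among 9965 genes with a mean of at least 10 CPM. They were Ube3b (Pearson r = 0.995) and Il15ra (0.990) for Kcnk1, Abcg2 (0.983) and Rap1gds1 (0.982) for Kcnk2, and Znrf1 (0.910) for Kcnk3. Vsig2 (0.962) and Pde4a (0.951) followed Kcnk4, Fggy (0.972) and the A-type potassium channel gene Kcnd3 (0.944) followed Kcnk10. Irf2bp2 (0.987) and the ATP-sensitive potassium channel gene Kcnj11 (0.963) followed Kcnk12, and Fan1 (0.992) and Setd2 (0.991) followed Nalcn. Likeness of this size among so many genes and 8 libraries is a description and includes the difference between genotypes.

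**Figure D4:**
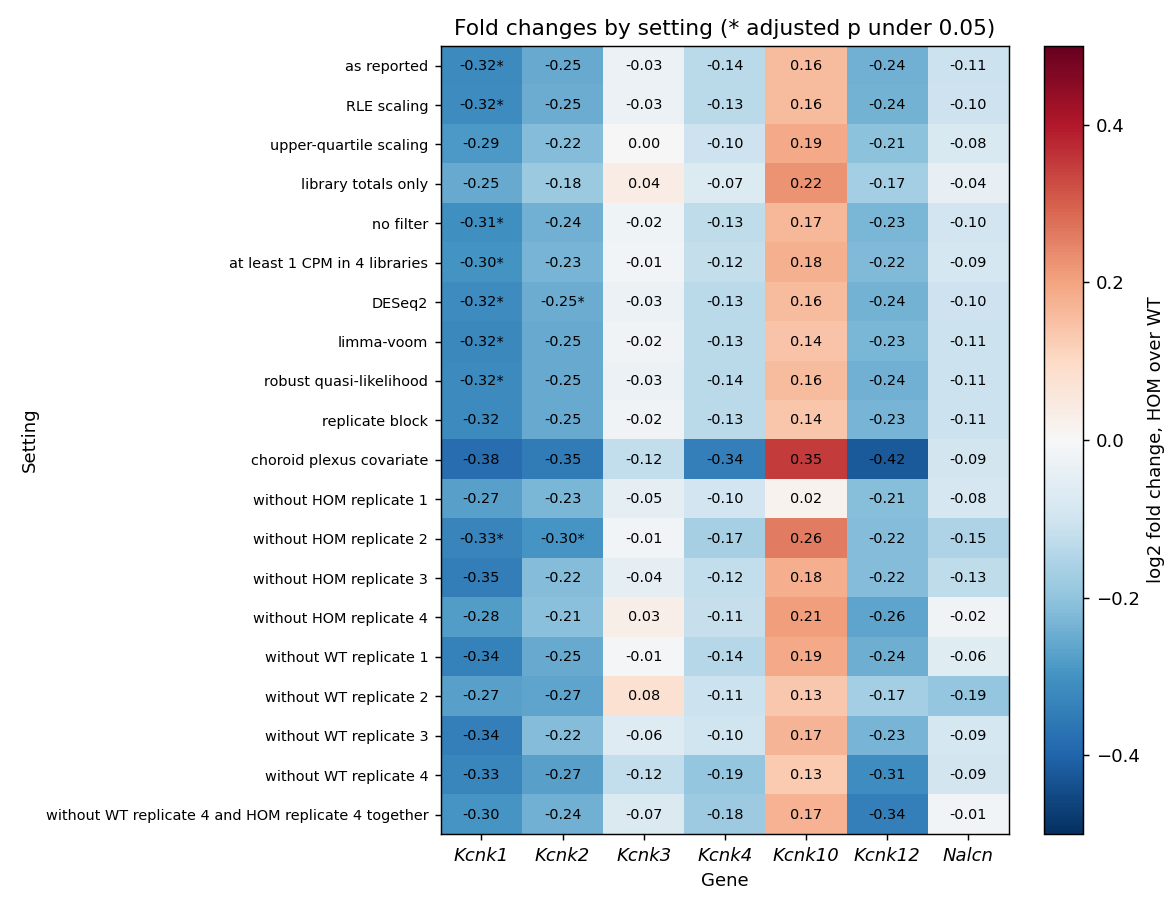
Log2 fold change of HOM over WT for each leak channel gene (columns) under the reported setting and 19 alternatives (rows), with an asterisk where adjusted p is under 0.05. Kcnk1 is below 0 in every row and marked in the top row and 7 of the alternatives, Kcnk2 is marked in 2, and no other gene is marked.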

How the data were processed

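RNA-seq libraries of 4 HOM and 4 WT samples were analysed. The deposited matrix holds raw counts, 1 whole number a gene and library. The submitters' processing notes name GRCm38 and the tools STAR, featureCounts, FastQC 0.11.3 and edgeR. For the strand setting, the annotation and the remaining versions the sources used here give nothing. The library kit was a stranded one, per the labels' protocols. Names and positions came from GENCODE M21, which held 54409 of 54446 identifiers. The test was that of edgeR 4.0.16 under R 4.3.3 (quasi-likelihood F test, TMM scaling, filterByExpr defaults, Benjamini-Hochberg over all 17395 genes, threshold 0.05); SEs are the log2 fold change divided by the square root of F. Log2 CPM used a prior count of 2. Intervals are for single genes and unadjusted. Libraries of a group differed beyond sampling noise (lowest chi-square per degree of freedom 8.21). In simulated counts for these 17395 genes, 55.0% of changes of 0.5 and 73.0% of changes of 1 on the log2 scale were recovered, with 6 false calls. The changed genes were drawn from all genes tested, and no change as small as those of the members was simulated. These rates therefore do not give the recovery for the members.

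The members and lists were chosen with earlier results of these data known. Named were all members, Scn2a, list genes past the threshold or of smallest p, up to 2 marker genes a list, and the 2 genes most like each member (for Kcnk3, 1 of them is not reported here); a few list genes are given beyond that for a value. Alternatives were other scalings, filters, DESeq2 1.42.0, limma-voom (limma 3.58.1), robust fitting, the replicate number as a block, a choroid plexus covariate and removal of libraries.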

Additional observations from a re-analysis of the deposited data

Results flagged for a closer look

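Kcnk2 in HOM replicate 2, at 68.1 CPM, stood apart from the other 3 HOM libraries, which lay between 58.0 and 59.7 CPM. Kcnk12 in HOM replicate 4, at 20.2 CPM, stood apart from the other HOM libraries, at 18.0 to 18.3 CPM. In both, the gap to the nearest library made up more of the range of the group (0.833 for Kcnk2 and 0.858 for Kcnk12) than the 95% limit of Dixon's test for 4 samples. Of the 14 groups of 4 values examined 2 were picked out, and chance picks out about 1 in 20.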

How the results depend on the processing

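Over 19 alternatives the log2 fold changes of Kcnk1, Kcnk2, Kcnk4, Kcnk12 and Nalcn stayed below 0 and that of Kcnk10 above 0. The number of members called, 1 as reported, was 0 with upper-quartile scaling, totals only, the replicate block, the choroid plexus covariate and without both replicates 4, 2 with DESeq2, and 0 to 2 with 1 library left out. In these settings without a call, the log2 fold change of Kcnk1 was -0.29, -0.25, -0.32, -0.38 and -0.30, and it ran from -0.35 to -0.27 with 1 library left out. Kcnk2 passed with DESeq2 (-0.25) and ran from -0.30 to -0.21 with 1 library left out. Kcnk3 turned to 0.000506 (upper quartile), 0.036 (library totals), 0.029 (without HOM replicate 4) and 0.077 (without WT replicate 2), and ran from -0.12 to 0.08 with 1 library left out. Over all genes, 1900 were called with DESeq2, 364 with the replicate block, 38 with the covariate, 335 without both replicates 4, and 180 to 1187 with 1 library left out. Calls were 429 higher and 511 lower as reported, 539 and 355 under the upper-quartile scaling, 844 and 286 under totals only, and 528 and 439 with the filter of 1 CPM. Replicate numbers are not stated to pair the samples. Deviations of same-numbered libraries correlated from -0.20 to 0.05, which with so few pairs cannot exclude a pairing. The block gave an edgeR adjusted p of 0.0709 for Kcnk1. The cause of these changes was not tested. Depth left counting errors of 1.61% to 4.30% for the members, smaller than the spread between libraries.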
